A study of Ptychodera flava with 31 samples.

Results

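Mid gastrulae of the acorn worm Ptychodera flava were compared after and before the mesoderm had migrated, using the 2 libraries titled mid2 gastrula (after migration, replicates 2 and 3) and the 3 titled mid1 gastrula (before migration, replicates 1 to 3). They are 5 of 31 RNA-seq libraries that cover 16 stages, with eggs at one end and an adult at the other. All were made from whole wild-type animals, with no treatment given in the labels, so that both sides hold every tissue of the embryo. Poly(A) RNA was sequenced with its strand, and the values are estimated counts and TPM (each model's share of the transcripts, corrected for its length and scaled to a fixed total) for 35854 transcript models. The labels call the libraries biological replicates and give no parents or cultures, so each p-value here sets a difference against a scatter of libraries that may be technical. In the main test of single models this is the scatter within stages over all 31 libraries, not that of the 5 compared alone.

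Ptychodera flava is a hemichordate, a marine invertebrate related to echinoderms and, within the deuterostomes, to chordates. At gastrulation the vegetal side of the hemichordate blastula folds inwards to form the archenteron, the future gut, and mesoderm comes from its wall and tip. In this species the embryo then grows into a planktonic tornaria larva, a feeding larva with ciliary bands, before it transforms into a burrowing worm. The transcript models carry assembly identifiers that the files do not pair with gene names, and 0 of 35854 were found in a reference gene table of 38920 entries. Marker genes of mesoderm, gut or ectoderm could not be looked up, and the models are described by their levels, lengths and courses.

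The 2 libraries after migration held 14273533 and 14199490 estimated counts, and the 3 before migration held 13248903, 13977522 and 16334076, within the 11539946 to 17288661 of all libraries. The number of models at 1 TPM or more was 17727 ± 297 after migration (SD, n = 2) and 17747 ± 225 before it (SD, n = 3; two-sided exact permutation p = 0.8, where 2 against 3 libraries cannot go below 0.2). The pair after migration was closer than any pair before it: Pearson's r of log2(TPM + 1) across models was 0.993 after migration, against 0.981, 0.978 and 0.96 before. Replicate 2 before migration was closest not to a library of its own stage but to replicate 2 after migration (r = 0.982). The margin was narrow, since its r with replicate 1 before migration was 0.981.

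Some transcript models followed the replicate number, in 1 list through several stages, and on that list both libraries after migration read like replicate 2. On the lists drawn from early gastrula alone they read unlike replicate 3 before migration and like both replicates 1 and 2. The lists were drawn from the other stages after seeing the data. In the first list, 20 models had at least 5 TPM in replicate 1 and under 0.5 TPM in replicate 2 at late blastula, early gastrula, late gastrula and 72 hours post fertilization (hpf), and 0 models had the reverse. All 20 were under 0.5 TPM in both libraries after migration; before migration 18 were under 0.5 TPM in replicate 2, while their medians were 13.1 TPM in replicate 1 and 20.7 TPM in replicate 3. A second list held 45 models at 5 TPM or more in replicate 3 of the early gastrula and under 0.5 TPM in its other libraries. Of these, 2 and 1 reached 5 TPM in replicates 2 and 3 after migration, against 1, 0 and 26 in replicates 1, 2 and 3 before migration. Another list, of 44 models with the opposite pattern at early gastrula, had 35 and 33 at 5 TPM or more after migration, against 35, 39 and 0 before.

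Libraries of the same number also deviated together from their stage means. Across 15257 models, which are not independent replicates (log2(CPM + 0.5), CPM being counts scaled to library size), the libraries before migration correlated with the early gastrula library of the same number at 0.51, 0.65 and 0.75, and with those of other numbers at -0.64 to 0.04. The libraries after migration correlated with the same-numbered ones before it at -0.03 and -0.1. Deviations of 2 libraries from their mean mirror each other, so a feature shared by both libraries after migration cannot show there. The comparison was made unpaired, as defined. What a number stands for is not given in the labels, and the names of the deposited files number the libraries after migration 1 and 2 where their titles, used here, say 2 and 3. The part of the number in the differences between the sides was not tested. Of the first list, 7 of the 20 models were lower after migration without overlap, a larger share than the 16.1% of all models tested. Of the second, 7 of the 45 were, a share near that of all models. Of the 44, 9 were higher without overlap, a somewhat larger share than the 15.3% of all models tested. These counts are small. Called were 0 of the listed models, and a call needs agreement among the libraries of a side. Counts are also given with replicate 2 as the only library before migration, an alternative chosen after seeing the data.

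More transcript models were called higher than lower across mesoderm migration, although fitted changes of any size were negative in more models (15157) than they were positive (13560). Of 30661 models tested, 734 were called higher after migration (2.39% of those tested) and 170 lower (0.554%) at an adjusted p under 0.05 and at least 2-fold (edgeR's quasi-likelihood test with Benjamini-Hochberg adjustment), so that 81.2% of the calls were rises. All 734 higher calls and 169 of the 170 lower calls (0.551% of those tested) also kept the sides fully apart, with every library after migration on one side of every library before it, in TMM-scaled CPM and in TPM alike. These 734 models are called the rising models here and the 169 the falling models. In RNA of whole embryos, fewer cells of a type and less RNA per cell cannot be told apart.

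With replicate 2 as the only library before migration, 327 models were called higher and 66 lower, of which 223 and 50 were among the calls of all 5 libraries. Single libraries moved the counts as well. Without replicate 3 after migration, 204 were called higher and 20 lower, and without replicate 2 after migration 439 and 71. Leaving out replicate 2 before migration gave 673 and 292, and leaving out replicate 3 before migration gave 521 and 110. In each of these fits more models were called higher than lower.

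**Figure D1:**
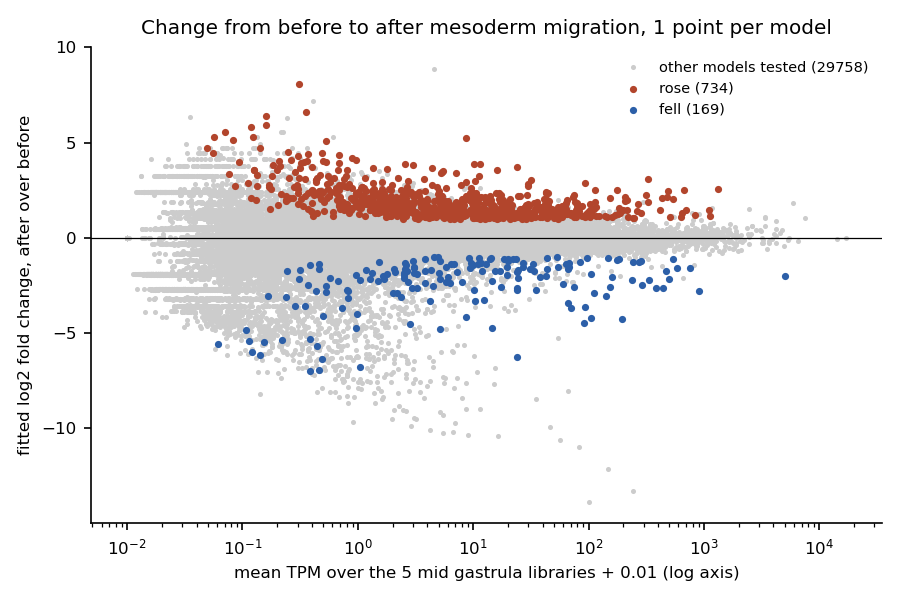
Fitted log2 fold change, after over before mesoderm migration, of each of the 30661 models tested (1 point each) against its mean TPM over the 5 mid gastrula libraries plus 0.01 (log axis). The 734 rising models (red) outnumber the 169 falling ones (blue), and the grey points far below 0 are falls that were not called.

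Large fitted falls that were not called were common, and in most of them replicate 3 was the highest library before migration. Of 254 models with a fitted fall of at least 16-fold and a mean of at least 1 TPM before migration, 11 were among the falling models. That library was the highest in 207 of the 254, replicate 1 in 41 and replicate 2 in 6. Fitted rises of that size were 10 (mean of at least 1 TPM after migration), 7 of them among the rising models.

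The rising models were mostly modest in size and wide in level. The rise was 2- to 4-fold in 494, 4- to 8-fold in 165 and at least 8-fold in 75, with a median log2 fold change of 1.65 (quartiles 1.30 and 2.20), against 0.00 over all models tested. In 12 of them every library before migration had 0 counts, and with these at a floor of 3 counts over the group the median was 1.64 and 66 models had a rise of at least 8-fold. Their median level was 9.14 and 9.30 TPM in replicates 2 and 3 after migration, against 3.08, 3.11 and 2.79 TPM in replicates 1, 2 and 3 before. The mean after migration reached 1 TPM in 645, 10 TPM in 351 and 100 TPM in 75 of the rising models, and 89 stayed under 1 TPM. The 75 most abundant carried 74.2% of their summed TPM after migration.

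Set against each library before migration on its own, the median difference of the rising models on the log2(CPM + 0.5) scale was 1.33 over replicate 1, 1.42 over replicate 2 and 1.47 over replicate 3. Together the rising models made up 3.82% and 4.35% of all TPM after migration, against 1.49%, 1.39% and 1.34% before it. Since each of these models was chosen for not overlapping in TPM and CPM, the gap between the sides in this share follows from the choice. So does the sign of the differences over each library.

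The first rise named is TCONS_00007048, a short model of 426 bases whose function is not known here. The rule took the 2 largest rises among rising models with a mean of at least 10 TPM after migration that were called with each of the 5 libraries left out in turn; 112 models qualified. It measured 21.5 and 20.6 TPM in replicates 2 and 3 after migration, against 0, 1.45 and 0 TPM in replicates 1, 2 and 3 before. The sides did not overlap, and only replicate 2 had any counts before migration (3.6 estimated counts). Fractional counts show that reads were shared with other models, so its level is uncertain. Its log2 fold change was 5.25 (SE 0.72, edgeR adjusted p = 0.000314), and 3.69 (SE 0.81, edgeR adjusted p = 0.0287) over replicate 2 alone.

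This model had been abundant earlier and returned. Its mean was 56.4 TPM in the egg, 179 ± 15.8 at 16-32 cells, 8.62 ± 0.465 at late blastula and 0.651 ± 1.13 at early gastrula (SD, n = 2, and n = 3 at early gastrula). After migration it went on to 53.1 ± 10.3 TPM at late gastrula, 87.9 ± 5.37 at 72 hpf and 115 ± 56.8 at the Meschnikoff stage of the tornaria (SD, n = 2 each), and it had 0 TPM in the adult library. A dip of this kind, from at least 5 TPM in a blastula stage to under 1 TPM at early gastrula, was found in 8 of the 734 rising models, against 99 of the 30661 tested.

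TCONS_00008867, of 742 bases, came on at mid gastrula. It measured 17.6 and 28.3 TPM in replicates 2 and 3 after migration, against 1.07, 2.42 and 1.47 TPM in replicates 1, 2 and 3 before. Both libraries after migration lay above every library before it, and replicate 2 was the highest before migration. The log2 fold change was 3.86 (SE 0.31, edgeR adjusted p = 2.54e-06). No earlier stage had a mean above 0.0943 TPM, while later it reached 98.7 ± 8.16 TPM at late gastrula, 673 ± 9.84 at 72 hpf and 774 ± 64.9 at Meschnikoff (SD, n = 2 each), and 81.4 TPM in the adult library.

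**Figure D2:**
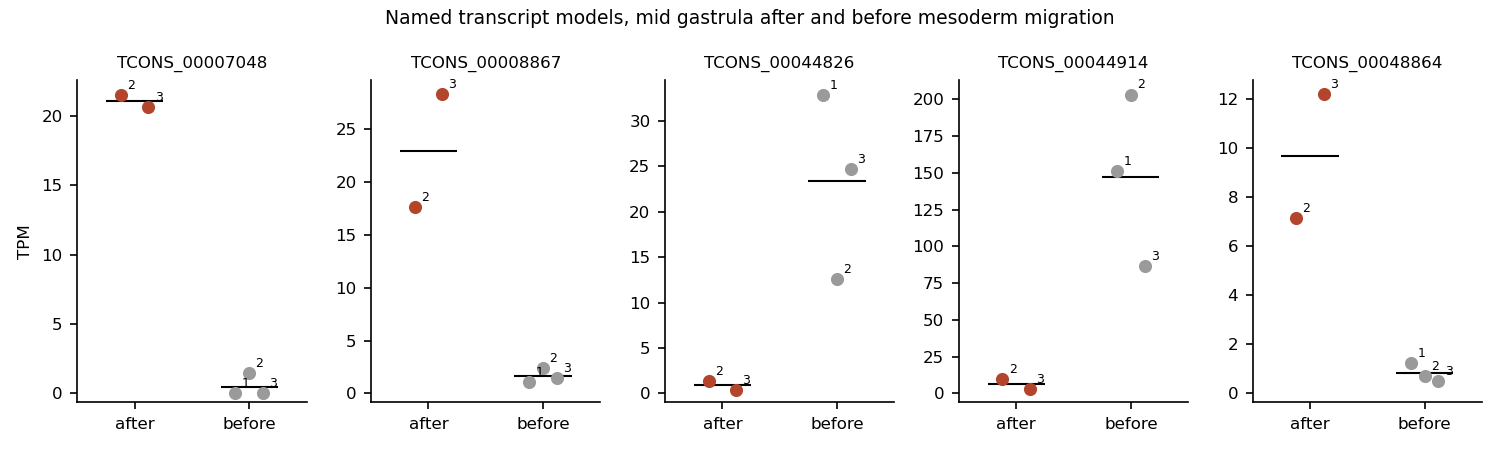
TPM of the 5 named transcript models in each mid gastrula library, after migration (left, red, 2 libraries) and before migration (right, grey, 3 libraries), with the mean as a line and the replicate number beside each point. In all 5 panels the points of the sides do not overlap.

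The falling models were fewer and, in part, very abundant before migration. The fall was 2- to 4-fold in 82, 4- to 8-fold in 49 and at least 8-fold in 38, with a median log2 fold change of -2.0 (quartiles -2.81 and -1.51). In 13 of them both libraries after migration had 0 counts, and with these at the same floor of 3 counts the median was -1.92 and 28 models had a fall of at least 8-fold. Their median level was 2.69 and 1.85 TPM in replicates 2 and 3 after migration, against 10.2, 7.94 and 11.6 TPM in replicates 1, 2 and 3 before. Replicate 3 was the lower of the libraries after migration in 135 of the 169 (79.9%). The same held in 77.5% of the 4938 models whose libraries after migration all lay below those before.

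Before migration, 140 of the falling models had a mean of at least 1 TPM, 84 of at least 10 TPM and 32 of at least 100 TPM. They took up 0.578% and 0.49% of all TPM after migration, against 2.34%, 2.15% and 1.86% before it, a gap that follows from their choice by lack of overlap. This sum rested on few models, since the 10 most abundant carried 67.3% of it before migration. The median difference on the log2(CPM + 0.5) scale was -1.58 over replicate 1, -1.34 over replicate 2 and -1.5 over replicate 3. Its sign also follows from the choice.

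TCONS_00044826, of 2421 bases, had the largest fall of the 17 models that met the same rule on the falling side. It measured 1.37 and 0.383 TPM in replicates 2 and 3 after migration, against 32.9, 12.6 and 24.7 TPM in replicates 1, 2 and 3 before. The libraries of the sides were far apart, with replicate 2 the highest after migration and the lowest before it. Its log2 fold change was -4.71 (SE 0.57, edgeR adjusted p = 0.00012). It had appeared at early blastula (99.1 ± 7.77 TPM), was highest at late blastula (875 ± 270 TPM, n = 2 each) and was at 292 ± 75.3 TPM at early gastrula (SD, n = 3).

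The next largest fall was that of TCONS_00044914, of 2354 bases. It measured 9.76 and 3.04 TPM in replicates 2 and 3 after migration, against 151, 203 and 86.3 TPM in replicates 1, 2 and 3 before. Its log2 fold change was -4.48 (SE 0.60, edgeR adjusted p = 0.000287). Like the first, it was highest at late blastula, with 2120 ± 182 TPM (SD, n = 2), and it was at 1220 ± 367 TPM at early gastrula (SD, n = 3) and 0.927 ± 1.08 TPM at late gastrula (SD, n = 2). Both models had fractional counts too, and their levels are uncertain for the same reason.

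Lack of overlap alone drew a wider and more even picture than the calls. In TPM and CPM together, 4700 models were higher in both libraries after migration than in all 3 before (15.3% of those tested) and 4938 were lower (16.1%), while 21023 were neither. Which direction was larger turned with the unit: in CPM alone 5570 were higher and 5061 lower, and in TPM alone 4815 were higher and 5653 lower. Sides of 2 and 3 libraries can also separate by order alone, since the smallest two-sided exact permutation p is 0.2. How much of the 15.3% and 16.1% arose that way was not tested. Most gaps between the sides were small. The fitted change was under 2-fold in 2424 of the higher and 3347 of the lower models, and a gap of at least 1.5-fold in TPM + 1 between the nearest libraries was found in 842 and 299. The counts grew with fewer libraries to compare: 7608 were higher without replicate 3 after migration, and 7102 higher and 7679 lower without replicate 2 before it.

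Few models crossed 1 TPM with every library. All libraries were under 1 TPM before migration and at least 1 TPM after it in 262 models, 88 of them rising models. The reverse held in 124, of which 17 were falling models. By stage means, 18000 of all models tested reached 1 TPM before migration and 17656 after it. These means are over 3 and 2 libraries, and the single libraries overlapped. They had 17827 and 17421 such models in replicates 2 and 3 after migration, against 17508, 17498 and 17878 in replicates 1, 2 and 3 before. The rising models had a median length of 2180.5 bases and the falling models of 2381 bases, against 1832 bases over all models tested. By lack of overlap alone, the higher models had a median of 1868.5 bases and the lower models of 2291 bases. Whether length made a call easier was not tested.

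Libraries of the stages on either side moved the same way. Their levels were not compared in choosing the models, but they entered the filter, the scaling and the estimate of the spread. From early to late gastrula, stages with 3 and 2 libraries of their own, 720 of the 734 rising models were called higher (98.1%) and 0 lower, where 17.6% of all models tested were called higher. Their median log2 fold change, late over early gastrula, was 4.57, against 0.00 over all models tested. Of the 169 falling models, 142 were called lower (84.0%) and 0 higher, where 9.71% of all models tested were called lower, and their median was -3.23 (edgeR's quasi-likelihood test with Benjamini-Hochberg adjustment throughout). At 0 counts in all early gastrula libraries were 47 rising models, and with these at the floor of 3 counts the median was 4.39. Fitted in 1 model over all stages, this contrast shares each transcript's estimate of the spread with the one that chose it, and early and late gastrula lie on either side of the mid gastrula stages in time. All models tested are a background that was not matched to the lists for level or spread.

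The same held within a replicate number. On the log2(CPM + 0.5) scale, late minus early gastrula had a median of 3.21 in replicate 1 and 3.40 in replicate 2 for the rising models, and of -2.68 and -2.97 for the falling models. For models chosen with replicate 2 as the only library before migration, 93.0% of 327 were called higher with a median of 3.82, and 92.4% of 66 were called lower with a median of -4.12. Choosing without replicate 2 before migration gave 292 falling models with a median of -1.73, of which 58.6% were called lower. Without replicate 3 after migration 20 falling models were left, with a median of -5.85. Models chosen by lack of overlap alone moved less: of 4700 higher models 62.8% were called higher from early to late gastrula (median 1.94), and of 4938 lower models 38.7% were called lower (median -0.96).

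**Figure D3:**
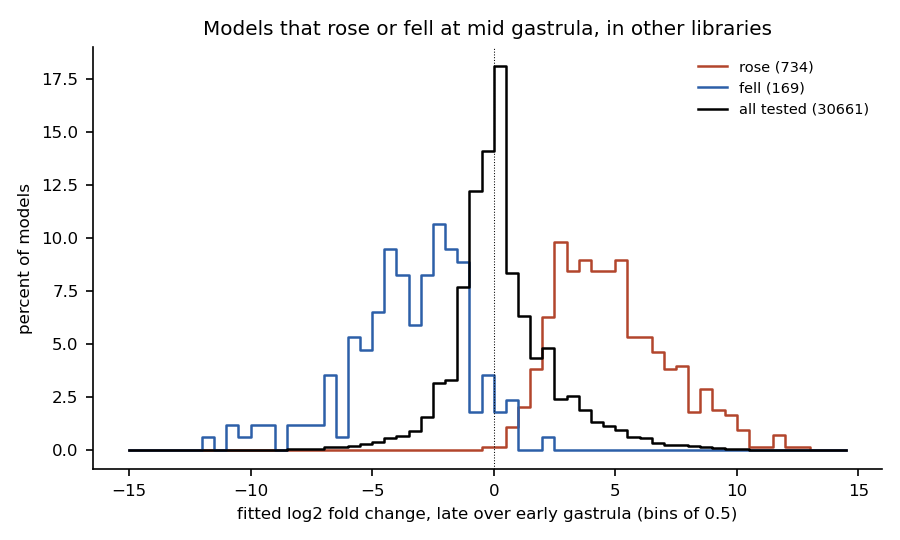
Percent of models by fitted log2 fold change, late over early gastrula, in bins of 0.5, for the 734 rising models, the 169 falling models and all 30661 tested. The rising models centre on 4.57 and the falling models on -3.23, on either side of all models tested.

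The rise across migration was 1 step of a longer climb. The median of the rising models was 0.705 TPM at early gastrula, 3.17 before migration, 9.31 after it and 16.1 at late gastrula. In 519 of the 734 (70.7%, against 14.5% of all models tested) every library before migration already lay above every early gastrula library. In 510 (69.5%, against 24.7%) both late gastrula libraries lay above both libraries after migration, and 363 (49.5%, against 5.86%) did both. These steps share libraries with the choice of the models and are given as a description.

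For the falling models the median was 16.6 TPM at early gastrula, 9.26 before migration, 2.26 after it and 1.71 at late gastrula. Before migration 85 of the 169 (50.3%, against 11.3% of all models tested) already lay below early gastrula in every library. From the later mid gastrula to late gastrula 60 (35.5%, against 17.1%) lay lower again without overlap and 38 (22.5%, against 24.7%) were higher again, so the shares of the falling models at the last step were nearer to those of all models.

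Over the next step, late gastrula over mid gastrula after migration, 112 rising models were called higher again (15.3%, where 1.32% of all models tested were) and 0 lower (0.232% of all), with a median log2 fold change of 0.68. The largest such rise among those with a mean of at least 10 TPM at late gastrula was TCONS_00048864, of 980 bases. It measured 138 and 239 TPM in the late gastrula libraries, against 7.14 and 12.2 TPM after migration, and had 1.24, 0.720 and 0.511 TPM in replicates 1, 2 and 3 before migration. The log2 fold change was 4.16 (SE 0.47, edgeR adjusted p = 0.000242) for late gastrula over mid gastrula after migration, and 3.65 (SE 0.54, edgeR adjusted p = 0.000742) for after over before migration. It peaked in the tornaria, with 1220 ± 337 TPM at 72 hpf and 1410 ± 158 at Meschnikoff, and fell to 46.9 ± 4.91 TPM at the Agassiz stage (SD, n = 2 each), against 415 ± 256 at Spengel. Among the falling models 34 were called lower at this step (20.1%) and 2 higher.

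**Figure D4:**
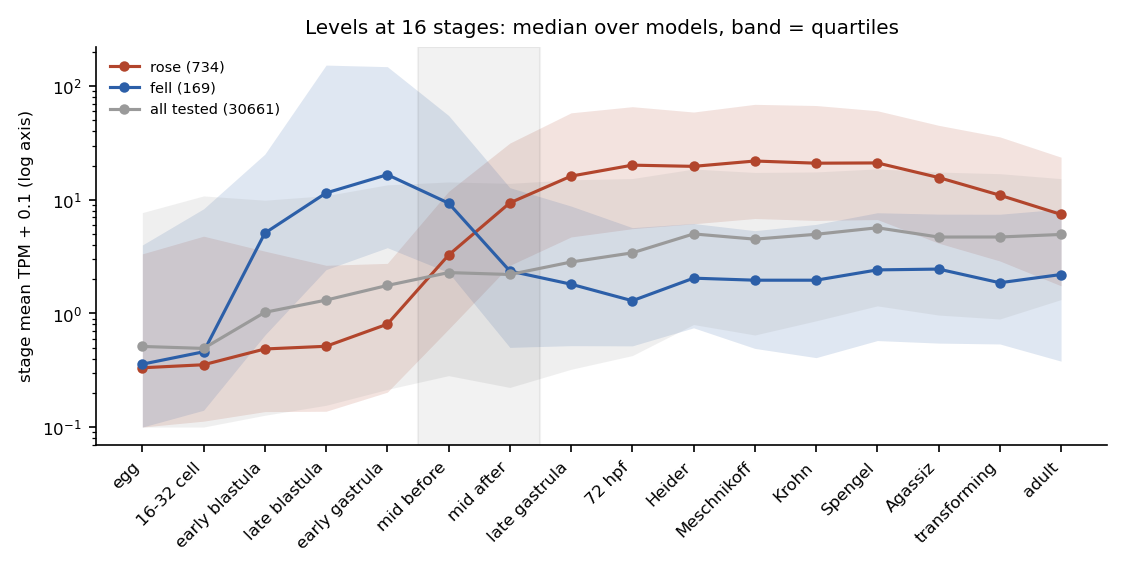
Median stage mean TPM plus 0.1 (log axis) of the 734 rising models, the 169 falling models and all models tested at the 16 stages in order, with quartiles as bands and the mid gastrula stages shaded. The rising models stay near 20 TPM from 72 hpf to the Spengel stage, and the falling models are highest at early gastrula (16.6 TPM).

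The rising models stayed on through larval life. Their median was 20.1 TPM at 72 hpf, 19.6 at Heider, 21.9 at Meschnikoff, 20.9 at Krohn, 21.0 at Spengel and 15.6 at Agassiz, which are named stages of the tornaria in order, and 10.9 TPM in transforming larvae and 7.34 in the adult (1 library each, without a test). In 623 of the 734 (84.9%, against 53.7% of all models tested) every stage mean from late gastrula to Agassiz was at least 1 TPM. Their summed share of TPM was largest at 72 hpf, at 8.82% ± 0.712, was 6.13% ± 0.904 at Heider and 8.32% ± 0.231 at Meschnikoff (SD, n = 2 each), and was 3.36% in the adult library.

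The steps between larval stages differed in how many rising models they moved. From late gastrula to 72 hpf, 62 rising models were called higher (8.45%, against 2.97% of all models tested) and 19 lower (2.59%, against 0.926%). From 72 hpf to Heider, 168 rising models were called lower (22.9%, against 7.05% of all models tested) and 31 higher (4.22%, against 7.78%). From Heider to Meschnikoff, 102 were called higher (13.9%, against 2.37%) and 18 lower (2.45%, against 1.42%). The same 41 models were called lower at the first and higher at the second of these steps (5.6%, against 0.5% of all models tested), though these 2 steps share the Heider libraries. From Spengel to Agassiz, 181 were called lower (24.7%, against 8.44%) and 62 higher (8.45%, against 8.14%). From Meschnikoff to Krohn, 11 were called higher (1.5%, against 1.03%) and 17 lower (2.32%, against 0.417%). From Krohn to Spengel, 2 were called higher (0.272%, against 0.313%) and 2 lower (0.272%, against 0.0457%). Across the 6 steps from late gastrula to Agassiz, 284 rising models (38.7%) were called at none, against 68.8% of all models tested.

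The groups that fell later, each chosen by its fall, differed in level at the earlier stages. The 168 rising models called lower at Heider had medians of 57.3 TPM at late gastrula, 54.4 at 72 hpf and 20 at Heider. Later they had 28.5 at Meschnikoff and 27.7 at Spengel. The 181 called lower at Agassiz had medians of 26.2 TPM at late gastrula, 29.6 at 72 hpf, 38.2 at Meschnikoff and 27.2 at Spengel. Their medians were then 5.58 at Agassiz, 2.70 in transforming larvae and 1.68 in the adult.

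**Figure D5:**
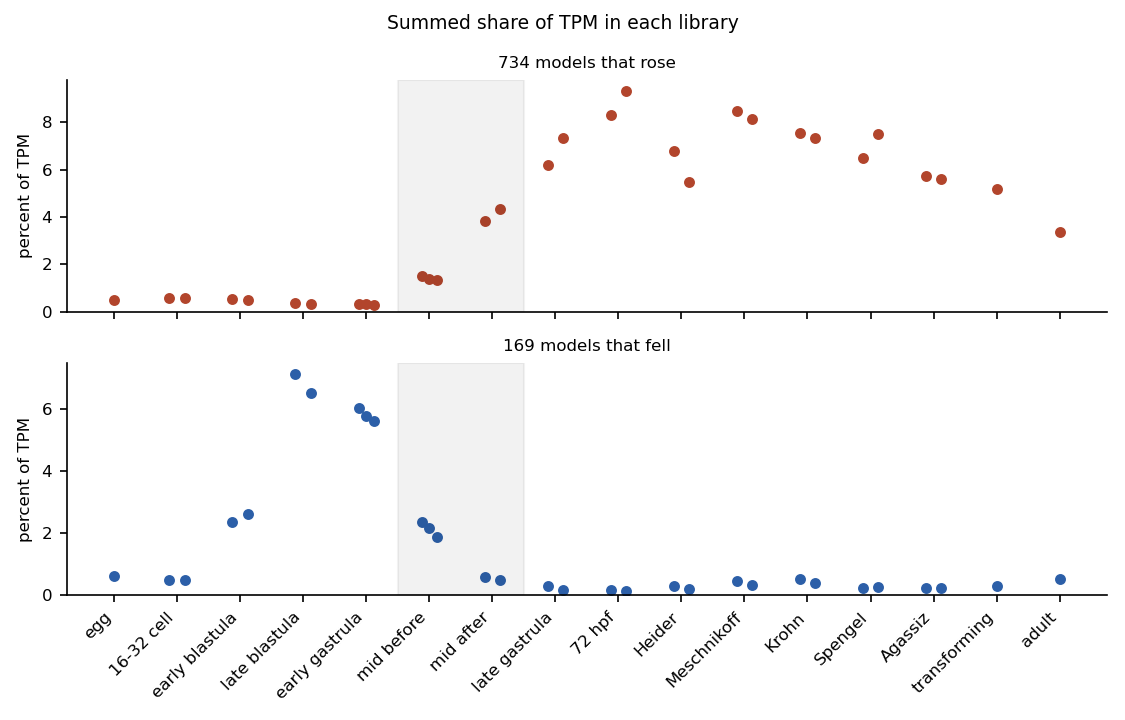
Summed percent of TPM taken by the 734 rising models (upper panel) and the 169 falling models (lower panel) in each of the 31 libraries, by stage in order, 1 point per library. The rising models are at 3.82% and 4.35% after migration, against 1.34% to 1.49% before it, and the falling models are at 0.49% and 0.578%, against 1.86% to 2.34%. Both gaps follow from the choice of the models by lack of overlap.

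Where the highest stage mean lay outside the mid gastrula stages also set the lists apart from all models tested. For 597 rising models (81.3%, against 41.2%) it lay between late gastrula and Agassiz, for 61 (8.3%, against 21.3%) in the adult, and for 0 in a blastula stage or early gastrula (14.8% of all). For 109 falling models (64.5%) it lay in a blastula stage or early gastrula, and for 22 (13.0%) between late gastrula and Agassiz.

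Part of both lists was already present in the egg. In the egg library 282 rising models (38.4%) and 61 falling models (36.1%) had at least 1 TPM, against 43.6% of all models tested. The 282 had medians of 6.24 TPM in the egg, 2.73 at early gastrula, 8.37 before migration, 20.5 after it and 40.2 at 72 hpf. The other 452 rising models had medians of 0 TPM in the egg, 0.181 at early gastrula, 1.33 before migration, 4.84 after it and 11.9 at 72 hpf. In 340 of the 734 (46.3%, against 39.2% of all models tested) no stage mean up to early gastrula reached 1 TPM. At the onset of gastrulation the rising models moved in both directions: from late blastula to early gastrula 83 were called higher (11.3%, against 6.28% of all models tested) and 66 lower (8.99%, against 2.59%). Of the falling models 35 were called higher at that step (20.7%) and 22 lower (13.0%).

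The most abundant falling models were highest at late blastula and early gastrula. The 32 with at least 100 TPM before migration had medians of 0.172 TPM in the egg, 58.6 at early blastula, 711 at late blastula, 827 at early gastrula, 278 before migration, 80.3 after it, 33.6 at late gastrula, 7.5 at 72 hpf and 0.912 in the adult, and all 32 were called lower from early to late gastrula. Of the 169, 71 were under 1 TPM at late gastrula (42.0%, against 38.9% of all models tested). A group of 25 of these had at least 5 TPM at a stage from Heider to the adult. Its median was 0.792 TPM before migration, 0.178 after it, 0.307 at late gastrula, 1.77 at Heider, 5.14 at Agassiz and 8.19 in the adult. The higher later levels follow from the choice of the group. Under 1 TPM at late gastrula and at 5 TPM or more in the adult were 14 falling models (8.3%, against 9.6% of all models tested).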

How the data were processed

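Groups and replicate numbers follow the titles of the samples, and 0 columns of other samples were present. The authors deposited 1 table for each library that gives estimated counts (also called expected counts; they can be fractional), TPM, and the length and effective length of each model, per the file headers. kallisto and edgeR are named in the submitters' processing notes; versions, genome build and the source of the models: not given in the sources used here. RNA was extracted with a column kit and made into stranded poly(A) libraries, per the labels' protocols.

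Estimated counts were rounded to whole numbers. edgeR 4.0.16 in R 4.3.3 (filterByExpr by stage, TMM, quasi-likelihood fit with trended dispersion, 1 coefficient per stage, all 31 libraries, 15 residual degrees of freedom) tested 30661 models. A call needed a Benjamini-Hochberg adjusted p under 0.05 and at least 2-fold. Lack of overlap was counted in TMM-scaled CPM and TPM. The scripts were tested on simulated data. Other settings used DESeq2 1.42.0 and limma 3.58.1, with pseudocounts of 1 and 0.1 TPM. Python 3.11.15, pandas 2.3.3, SciPy 1.17.1 and matplotlib 3.10.9 were used for counts and plots.

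The comparison, the lists and the settings were chosen with earlier results of these data known. Models were named by rule: the 2 largest rises and 2 largest falls that were called, not overlapping, at 10 TPM or more on the higher side and called in every fit without 1 of the 5 libraries, plus the largest change of a rising model at late gastrula. Tests of gene lists were not run, since no identifier could be named. Whether the libraries of a side were the same library was checked by chi-square per degree of freedom, which was 8.72 after migration and 20.54 to 49.73 before it, so all were counted.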

Additional observations from a re-analysis of the deposited data

How the results depend on the processing

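The 734 higher and 170 lower calls changed with the setting. With only the 5 libraries compared there were 394 higher and 83 lower calls, and with only the 10 gastrula libraries 480 and 115. DESeq2's Wald test called 955 higher and 436 lower (68.7% higher, against 81.2%), and an adjusted p alone, with no fold threshold, 1057 and 430. With a replicate block the 5 libraries gave 0 calls in edgeR (2954 models at an unadjusted p under 0.05) and the named models lost their calls (log2 fold changes -4.51 to 4.88), while the block over 10 gastrula libraries gave 748 higher and 365 lower. Same-numbered libraries of the sides did not deviate together (correlations of deviations -0.014 and -0.052 over all models tested). With 2 libraries after migration these deviations mirror each other, so anything both libraries share cannot show in them. Whether the numbers pair the sides was therefore not settled. In 5 libraries the block leaves few degrees of freedom. With mid1 gastrula replicate 2 as the only library before migration, 327 were called higher and 66 lower. Leaving out 1 library at a time gave 204 to 673 higher and 20 to 292 lower calls, where a lone library was assumed to vary like the other stages. limma on log2(TPM + 1) gave 658 higher and 192 lower calls, and with a pseudocount of 0.1, 665 and 245.

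Models without overlap fell to 842 higher and 299 lower with a gap of at least 1.5-fold, and ranged from 5565 to 7608 higher and 6383 to 7679 lower without 1 library. For late over early gastrula the medians ranged from 4.15 to 5.0 for rising and -5.85 to -1.73 for falling models without 1 library. With 1 library before migration they were 3.82 and -4.12. Chosen by lack of overlap alone they were 1.94 and -0.96, with 62.8% and 38.7% called. The difference in models at 2 TPM or more was 18.7 (exact permutation p = 1.0), the opposite sign to -20.0 at 1 TPM (exact permutation p = 0.8). The causes were not tested. Which direction without overlap held more models also turned: 4700 higher and 4938 lower became 5570 and 5061 in CPM alone, 842 and 299 with the 1.5-fold gap, and 7608 and 6504 without replicate 3 after migration.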
